A study of Mus musculus with 3 samples.

Results

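The subject is the transcriptome of cells labelled as bone marrow stem cells, from mice that received no radiation, as read on 1 microarray of a series of 3. The array, labelled non-irradiated, carried total RNA from cells sorted as long-term haematopoietic stem cells (LT-HSCs) from the bone marrow of female C57Bl/6 mice aged 8 to 10 weeks. The labels give 10000 isolated cells without saying whether that holds for each group, and place the isolation at day 15 after total body irradiation for all 3 arrays, so for the non-irradiated mice it is the matched day. The series set these mice beside mice irradiated with FLASH and mice labelled CDR, and the 2 irradiated arrays were not used here. How the cells were gated, how many mice were pooled and whether control mice were handled like the others is not given in the sources used here. All 23185 probe sets that the platform table pairs with 1 gene symbol, of 25206 on the array, were described, each as the level of 1 named gene.

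LT-HSCs are the rare marrow cells that can rebuild all blood lineages for the life of an animal. They are known to divide seldom, to rest in a niche of stromal and vascular cells, and to be held there by Kit ligand and CXCL12. Mouse LT-HSCs are usually sorted as cells that lack mature lineage markers, carry KIT, SCA-1 and the SLAM receptor CD150, and have little CD48, CD34 or FLT3. The cells just below them in the hierarchy, the multipotent and myeloid progenitors, divide often and carry CD48, CD34 or FLT3.

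Values are log2 levels as the submitters deposited them. With 1 array there is no replicate, so no value below has an error and no difference was tested. Probe sets also differ in how well they bind, so a higher reading of 1 gene than of another does not order the amounts of their transcripts. Each gene was instead placed against a background read on the same array, the genes for olfactory, vomeronasal and trace amine receptors, which sensory neurons use and blood cells are not known to use. The 1348 such genes had a median level of 2.46 with a spread among genes of 0.77 (SD), against a median of 4.68 over all named genes. Their 95th percentile, 4.15, served as the detection level, and 13313 named genes (57.4%) lay above it. A stricter class lay above every receptor gene, of which the highest was Olfr1333 at 6.89, and held 6224 genes (26.8%). The brightest class lay above the 90th percentile of the named genes, at 8.48, and held 2319 genes (10.0%). These shares, 57.4%, 26.8% and 10.0%, are the ones against which each gene list below is to be read. They pool receptor and noncoding genes with the rest. Of 18186 protein-coding genes other than receptors, 66.4% lay above the detection level and 32.7% above every receptor gene. A list of protein-coding genes near 57.4% is thus below that second share.

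**Figure D1:**
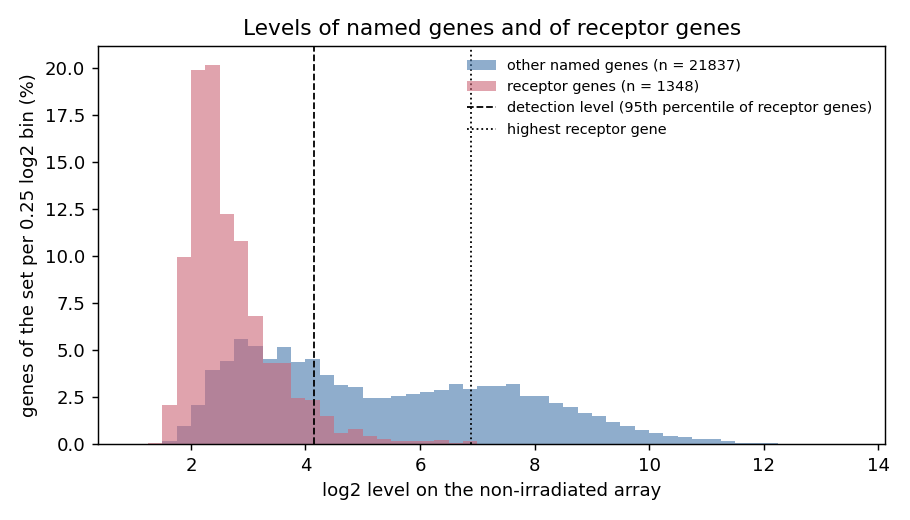
Histogram of log2 levels on the non-irradiated array for the 1348 receptor genes and all other named genes, each as a percentage of its own set in bins of equal width. The receptor genes pile up near their median of 2.46, while the other genes spread over a broad range that crosses both the detection level of 4.15 (dashed) and the highest receptor gene at 6.89 (dotted).

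The scale can be checked on genes with a known answer. None of the 7 Y-linked genes measured lay above the detection level, their median being 2.45, and the X-inactivation RNA Xist read 10.45 on RNA labelled as coming from female mice. Among 66 genes of liver, nerve, muscle, sperm, epithelium and pancreas, 19 (28.8%) lay above the detection level and 1 above every receptor gene, haptoglobin (Hp, 8.77), a plasma protein that binds haemoglobin. A level between 4.15 and 6.89 is therefore weak evidence of a transcript. With the 95th percentile of these genes (5.95) as the detection level, the counts of 22 of 66 lists fell by over 1.5 times, among them stem cell identity (39 to 24), erythroid (22 to 11), monocyte and macrophage (23 to 12), imprinted (13 to 3), BCL2 family (15 to 7) and p53 pathway genes (17 to 9). A reading under the detection level is no evidence of absence either. Several genes that every cell uses read there: ribosomal protein genes Rps2 (3.65) and Rpl10 (3.39), the translation factor gene Eif4a1 (2.37), the aldolase gene Aldoa (3.79) and the proteasome subunit gene Psma5 (2.01). Low readings are also coarse, since 72.8% of the probe sets at or under the detection level shared their exact value with another, against 18.9% of those above every receptor gene.

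The highest readings came from genes of many kinds. Rplp1 (13.17), a protein of the ribosomal stalk, was the highest named gene, and the ribosomal protein genes Rps21 (12.71), Rps9 (12.46), Rpl22 (12.36) and Rpl4 (12.15) were among the 30 highest once gene models, pseudogenes, antibody segments and small RNA genes were set aside. B2m (12.81) and H2-D1 (12.51) encode the light chain and a heavy chain of MHC class I. Respiration was represented by Cox6a1 (12.21), of cytochrome oxidase, and by Atp5e (12.04), of ATP synthase. Other genes of this group with known roles were Actb (12.72) for beta-actin, the cytokine gene Mif (12.52), Zfp36 (12.41) for an RNA-destabilising protein, Pabpc1 (12.21) for the poly(A)-binding protein and Gpx1 (12.18) for a peroxide-reducing enzyme. Pcna (11.87), the sliding clamp of DNA replication, and Tubb5 (11.81), a beta-tubulin, stood in the same group.

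Blood-specific products were also among the 30. Mpo (12.36) encodes myeloperoxidase, the oxidant enzyme of neutrophil granules, and Srgn (11.92) encodes serglycin, the proteoglycan on which granule proteases are packed. Laptm5 (12.31) is a lysosomal membrane protein of blood cells and Ly6e (12.16) an interferon-induced surface protein. Igkc (12.55) and Ighm (11.83) encode constant regions of the antibody kappa and mu chains. With the same kinds of genes set aside, the 250 highest genes read 10.62 or more. The 99th percentile of all 23185 named genes, the set-aside kinds included, was 10.74, close to that limit. Each count of list members is to be read against that small share. The 250 held 22 of the 69 measured nuclear genes of oxidative phosphorylation and 9 of 53 cytosolic ribosomal protein genes. Proteasome subunits gave 8 of 34, chaperones 6 of 27, translation factors 6 of 26 and immediate early genes 6 of 29. Long noncoding RNA genes gave 5 of 19, granulocyte genes 4 of 22 and MHC class I presentation genes 4 of 17. Of the 250, 150 were in no list. Ribosomal, histone and MHC class I genes have near-identical copies elsewhere in the genome, and how the array's probes treat those copies was not tested.

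The label was set beside the genes for surface proteins by which LT-HSCs are sorted. Of 21 measured, 18 lay above the detection level, 12 above every receptor gene and 6 in the brightest class, with a median of 7.15. Kit, the stem cell factor receptor, read 10.25, and Procr, the protein C receptor that marks the most potent stem cells, read 7.15. Slamf1, which encodes CD150, read 6.13 and Tek, the angiopoietin receptor, 5.80, both above the detection level but within the range of the receptor genes. Adgrg1 (11.22), Cd81 (11.03), Cd27 (10.13), Eng (9.12) and Cd9 (8.99), all adhesion or signalling proteins found on stem cells, completed the brightest class beside Kit. Gprc5c (4.09), Jam2 (3.68) and Neo1 (3.09) read under the detection level. Ly6a, the gene for SCA-1, has no singly named probe set and was not analysed here.

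The genes that such a sort is meant to keep low were not uniformly low. Of 14 measured, 10 lay above the detection level, 4 above every receptor gene and 3 in the brightest class, with a median of 5.18. The 3 were Cd34 (11.25), a sialomucin of progenitors and vessels, Cd48 (9.70), a SLAM-family ligand, and Flt3 (8.69), the receptor of early lymphoid and multipotent progenitors. Fcgr3, an Fc receptor used to gate granulocyte-macrophage progenitors, read 8.09. The 6 between the detection level and the highest receptor gene were Cd244a (6.56), Itgam (6.42), Klrb1c (5.99), Cd4 (4.36), Cd8a (4.25) and Cd5 (4.23). The 4 under the detection level were Il7r (4.01), Ly6g (3.50), Cd3e (3.10) and Ms4a1 (2.55). Some other genes used by mature lymphoid and myeloid cells were in the brightest class, among them Igkc (12.55), S100a9 (10.12), Cd79b (9.04) and Trbc1 (8.68). Most members of their lists were not. That class held 4 of 20 B cell, 1 of 22 T cell and 7 of 22 granulocyte genes. The measured RNA thus held stem cell markers and progenitor markers together. For Cd34, Cd48 and Flt3 this differs from the usual sort of LT-HSCs. Beyond surface proteins, the granule gene Mpo read 12.36. All 39 mitosis genes lay above the detection level (median 8.21), although LT-HSCs are known to divide seldom. The gate used is not given, and a sort reads surface protein rather than RNA, so these readings cannot show whether the label holds. Whether other cells were among those sorted was not tested. In RNA from many cells, a small share of cells with much of a transcript and many cells with little of it cannot be told apart, here and in every result below.

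The promoters of Hlf, a PAR-domain leucine-zipper factor closely tied to stem cell identity, and of Kit are shown because both genes define the cell and both are in the brightest class. Each sequence is the RefSeq window from 250 bases before to 50 bases after the annotated start on GRCm38.p6, read 5′ to 3′ along the gene. Capitals mark matches, on either strand, to GGGCGG (the GC box bound by SP factors), CCAAT (the NF-Y motif), TATAAA (the TATA motif) or TTTGAA (the core of the CHR element of cell cycle genes).
Hlf, chr11:90390868-90391167, minus strand: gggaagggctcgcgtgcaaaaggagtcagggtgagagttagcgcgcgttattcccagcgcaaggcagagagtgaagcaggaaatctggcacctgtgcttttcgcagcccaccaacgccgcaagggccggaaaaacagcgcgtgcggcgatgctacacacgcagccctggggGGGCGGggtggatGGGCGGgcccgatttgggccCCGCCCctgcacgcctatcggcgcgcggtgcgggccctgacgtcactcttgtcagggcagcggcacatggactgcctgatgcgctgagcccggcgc
Kit, chr5:75574737-75575036, plus strand: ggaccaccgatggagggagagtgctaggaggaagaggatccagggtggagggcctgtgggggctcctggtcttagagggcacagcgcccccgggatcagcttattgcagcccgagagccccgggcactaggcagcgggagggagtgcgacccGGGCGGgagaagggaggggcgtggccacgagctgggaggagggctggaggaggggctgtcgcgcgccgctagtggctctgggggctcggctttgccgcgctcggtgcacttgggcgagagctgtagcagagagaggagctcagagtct
Both windows were rich in CpG, with 30 CpG pairs in that of Hlf and 20 in that of Kit, and both carried GC boxes (3 and 1) but no match to the other motifs. Among all 17452 named genes with such a window, 46% were CpG-rich, defined as a GC share above 50% and an observed to expected CpG ratio above 0.6, and 47% held a GGGCGG match.

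Stem cell identity genes ranged from 3.09 for Neo1 to 11.19 for Ifitm3. Of 44 measured, 39 lay above the detection level, 17 above every receptor gene and 7 in the brightest class, with a median of 6.12 against 4.68 for all named genes. The brightest class held Ifitm3, an antiviral membrane protein, Txnip (10.50), a thioredoxin inhibitor, the angiopoietin gene Angpt1 (9.97), Gpr171 (9.95), Hlf (9.92), Meis1 (9.62), a homeodomain partner of HOX proteins, and Krt18 (8.53), a keratin. Several genes by which LT-HSCs are traced in reporter mice read lower: Mecom at 6.86, just under the highest receptor gene, Hoxb5 at 4.75 and Fgd5 at 4.64. H19 (3.36), an imprinted RNA reported in quiescent LT-HSCs, Matn4 (3.68) and Clec1a (3.44) read under the detection level. The 8 measured LT-HSC markers set for the label check all lay above the detection level and 3 of them (Kit, Hlf and Procr) above every receptor gene.

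**Figure D2:**
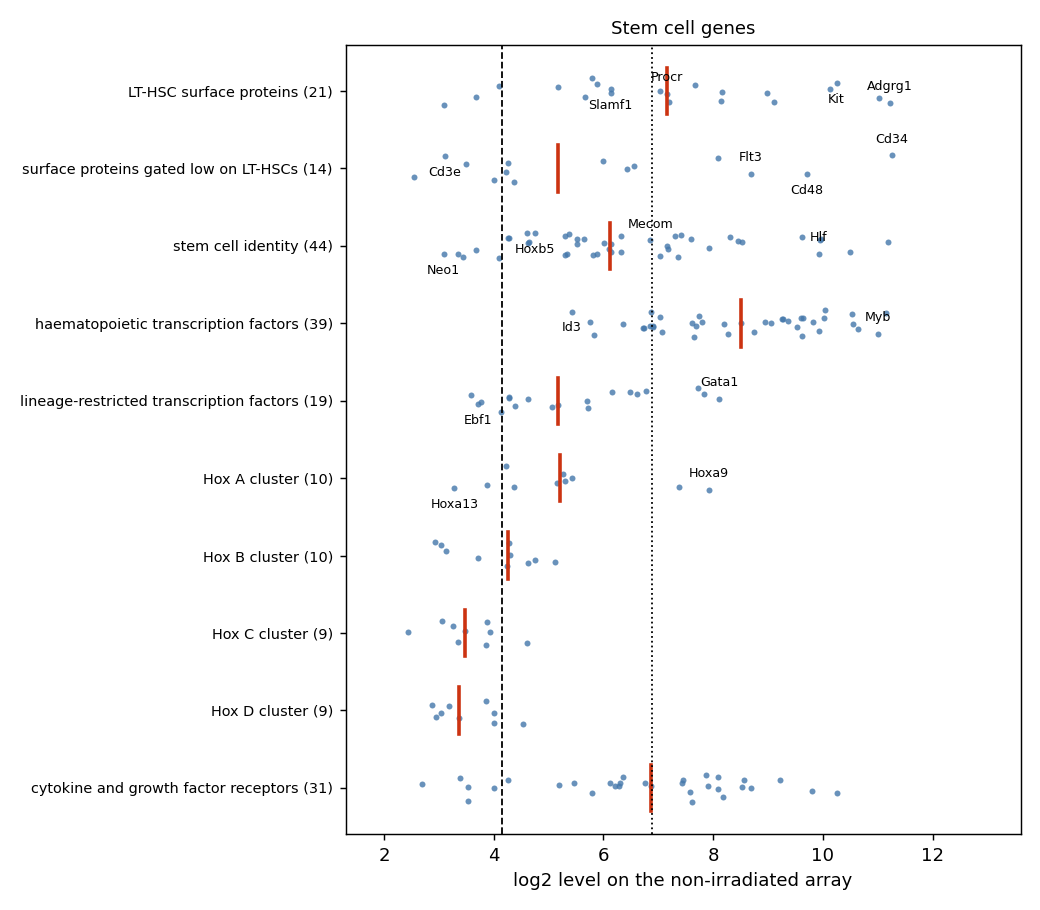
Log2 level of each measured member of 10 stem cell gene lists on the non-irradiated array (points; number of members in brackets) with the list median (red bar), the detection level of 4.15 (dashed) and the highest receptor gene at 6.89 (dotted). Vertical scatter within a row has no meaning. Haematopoietic transcription factors all lie right of the dashed line, Hox C and Hox D genes mostly left of it, and Cd34, Cd48 and Flt3 stand apart at the right of the gated-low row.

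Transcription factors of blood formation had the highest median of the stem cell lists. All 39 measured lay above the detection level, 31 above every receptor gene and 20 in the brightest class, with a median of 8.50. Nfe2 (11.14), a regulator of platelet and red cell genes, Myb (11.01), Myc (10.64), Spi1 (10.54), which encodes PU.1, and Etv6 (10.53) were highest, followed by Gata2 (10.04), a core stem cell factor, and its cofactor Ldb1 (10.03). The lowest were the inhibitors of basic helix-loop-helix factors Id3 (5.42) and Id1 (5.76), the forkhead factor Foxo1 (5.83), Gfi1 (6.35) and Klf4 (6.72), together with Id2 (6.73). Factors tied to 1 lineage were lower as a list. Of 19 measured, 15 lay above the detection level and 3 above every receptor gene, none was in the brightest class, and the median was 5.18. The 3 were Gata1 (8.11), the master factor of red cells, platelets and mast cells, Irf8 (7.83), of monocytes and dendritic cells, and Cebpa (7.72), of granulocytes and monocytes. The B cell factor gene Pax5 (5.07) lay above the detection level, and Ebf1 (3.70), of B cells, and Prdm1 (3.76), of plasma cells, lay under it.

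Hox genes, whose clustered homeodomain factors set position in the embryo and self-renewal in blood, differed by cluster. In the A cluster 8 of 10 lay above the detection level, led by Hoxa9 (7.91) and Hoxa7 (7.38), the only measured Hox genes above every receptor gene. In the B cluster 6 of 10 lay above it (60%, against 57.4% of all named genes), between Hoxb9 (4.24) and Hoxb3 (5.12). Hoxb4, known to expand stem cells when overexpressed, read 4.29. The C and D clusters had 1 of 9 each, Hoxc10 (4.61) and Hoxd10 (4.54). The medians were 5.21, 4.26, 3.47 and 3.36 from A to D, so the typical B gene read barely over the detection level. All Hox B, C and D counts fell to 0 at the 99th percentile of the receptor genes (5.33), and the A count to 3.

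Receptors for cytokines and growth factors were largely above background. Of 31, 26 lay above the detection level, 15 above every receptor gene and 6 in the brightest class, with a median of 6.86. Beside Kit and Flt3 the brightest were the interferon receptor chains Ifnar2 (9.81), Ifngr1 (9.22) and Ifngr2 (8.53) and the TNF receptor Tnfrsf1a (8.56). Csf3r, the G-CSF receptor, read 8.18 and Ifnar1 8.09. The leptin receptor Lepr (2.70), Il2ra (3.39), Lifr and Osmr (both 3.53) and Il7r (4.01) read under the detection level. Receptors of the TGF-beta, BMP, Notch and Wnt pathways were lower, with 23 of 29 above the detection level, 9 above every receptor gene and a median of 5.52. Eng (9.12), a TGF-beta co-receptor, was in the brightest class, Notch2 read 7.83 and Bmpr2 7.54, and the Frizzled genes Fzd2 (2.99) and Fzd10 (3.25) and the BMP receptor gene Bmpr1a (3.10) read under the detection level.

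Of 24 homing and adhesion genes, 22 lay above the detection level and 5 in the brightest class. Those 5 were Selplg (10.39), the selectin ligand, Cxcr4 (9.54), the CXCL12 receptor that keeps stem cells in marrow, the VLA-4 integrin chains Itgb1 (9.11) and Itga4 (8.67), and Pecam1 (8.56). The epithelial and neural cadherins Cdh1 (4.11) and Cdh2 (3.25) read under the detection level. Drug efflux transporters, the pumps that give stem cells their low dye staining, lay above the detection level in 9 of 9 cases, with Abcg2 at 7.20 and Abcb1a at 4.79, and none was in the brightest class.

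Imprinted genes, expressed from 1 parental allele and several of them known as brakes on stem cell growth, lay above the detection level about as often as named genes at large. Of 23 measured, 13 lay above it (56.5%, against 57.4%), 2 above every receptor gene (8.7%, against 26.8%) and none in the brightest class, with a median of 4.50 against 4.68. The 2 were Impact (7.37) and Grb10 (6.89), the latter an adaptor that restrains growth factor signals. The CDK inhibitor gene Cdkn1c read 5.33, Ndn 4.61 and Igf2 4.50, whereas Dlk1 (4.09), Meg3 (3.76), H19 (3.36) and Rian (3.10) read under the detection level. Of 18 retinoid pathway genes, 8 lay above the detection level (44.4%, against 57.4%), with a median of 4.06. Dhrs3 (8.49), a retinal reductase, was in the brightest class, Aldh1a1 read 8.45, and the retinoic acid receptor gene Rarb (3.63) and the degrading enzyme gene Cyp26a1 (3.38) read under the detection level.

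Chromatin regulators lay mostly above background. All 25 Polycomb genes lay above the detection level and 18 above every receptor gene, with a median of 7.39. Ezh2 (9.39), the H3K27 methyltransferase of dividing cells, was in the brightest class, its paralogue Ezh1 read 7.66, and Bmi1, required for stem cell self-renewal, read 7.66. Of 15 DNA methylation genes, 13 lay above the detection level and 5 in the brightest class. The maintenance pair Dnmt1 (9.85) and Uhrf1 (9.56), the isocitrate dehydrogenase gene Idh2 (10.66), Mbd2 (9.18) and Idh1 (8.65) made up the 5. The de novo methyltransferase genes Dnmt3a (8.06) and Dnmt3b (7.74) and the dioxygenase gene Tet2 (5.73), all known to shape stem cell output, lay above the detection level as well.

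Among lineage genes, the granule proteases of early neutrophil development read far above background. Of 22 granulocyte genes, 18 lay above the detection level, 9 above every receptor gene and 7 in the brightest class, with a median of 6.59. Beside Mpo (12.36), the 7 comprised the serine protease genes Ctsg (11.57), Prtn3 (11.38) and Elane (11.03), packed into granules at the promyelocyte stage, Ms4a3 (10.47), which traces granulocyte-monocyte progenitors, and the calprotectin genes S100a9 (10.12) and S100a8 (10.02). S100a8 and S100a9 are also abundant in mature neutrophils. Of other genes of later neutrophil stages, Lcn2 (6.97), Ngp (6.47) and Camp (5.90), proteins of secondary granules, lay above the detection level, whereas Ltf (3.82), for lactoferrin, Mmp9 (4.01), Cd177 (3.92) and Ly6g (3.50) did not.

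The promoters of 3 of these granule genes are printed because their base content differed from that of most genes read at such levels. They are RefSeq windows on GRCm38.p6 of the same length and with the same capitals as those of Hlf and Kit.
Mpo, chr11:87793534-87793833, plus strand: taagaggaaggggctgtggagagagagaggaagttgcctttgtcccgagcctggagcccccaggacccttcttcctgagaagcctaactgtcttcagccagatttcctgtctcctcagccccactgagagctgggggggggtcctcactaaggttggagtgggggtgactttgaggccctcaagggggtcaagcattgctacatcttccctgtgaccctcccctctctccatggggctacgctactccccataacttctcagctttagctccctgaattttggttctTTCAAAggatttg
Elane, chr10:79886062-79886361, plus strand: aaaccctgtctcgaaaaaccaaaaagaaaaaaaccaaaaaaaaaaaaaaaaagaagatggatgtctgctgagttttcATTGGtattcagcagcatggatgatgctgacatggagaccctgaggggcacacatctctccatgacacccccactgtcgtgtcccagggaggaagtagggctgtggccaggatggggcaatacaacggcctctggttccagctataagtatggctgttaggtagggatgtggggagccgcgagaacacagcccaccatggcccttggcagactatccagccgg
Ctsg, chr14:56102525-56102824, minus strand: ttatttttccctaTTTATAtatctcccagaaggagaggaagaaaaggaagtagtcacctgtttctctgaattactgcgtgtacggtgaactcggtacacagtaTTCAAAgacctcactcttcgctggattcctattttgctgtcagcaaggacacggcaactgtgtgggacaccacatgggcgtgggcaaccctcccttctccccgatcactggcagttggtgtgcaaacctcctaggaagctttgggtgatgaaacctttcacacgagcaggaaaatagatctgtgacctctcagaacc
None of the 3 was CpG-rich, with 2 CpG pairs in that of Mpo, 6 in that of Elane and 8 in that of Ctsg. Elane carried 1 CCAAT match (as ATTGG on the printed strand), Ctsg 1 TATAAA match (as TTTATA) and Mpo and Ctsg 1 TTTGAA match each (as TTCAAA). None of the 20 granulocyte genes with a window was CpG-rich, against 46% of all windows and 75.9% of the 5005 genes above every receptor gene. Of the 20, 8 (40%) held TATAAA, against 12.7% of all windows. Several other blood lineage lists were also poor in CpG-rich windows. They had 0 of 16 for monocytes and macrophages, 0 of 6 for eosinophils and 1 of 17 for megakaryocytes and platelets.

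Among genes other than receptors the CpG share followed the level class, and receptor genes, taken at any level, had the lowest CpG share. It was 0.0869% of 1151 receptor genes (1 gene), 21.1% of the 5972 other genes under the detection level, 55.8% of the 5324 between that level and the highest receptor gene, and 75.9% above it. TATAAA ran the other way, at 39.3%, 17%, 7.74% and 6.73%. The receptor windows were also poor in GC (median 35.7% against 61.3% in the highest class), and TATAAA holds no G or C, so base content alone changes how often it matches. A window was found for 17452 of 23185 named genes, 2725 of them with several listed starts, of which the first listed was used.

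**Figure D3:**
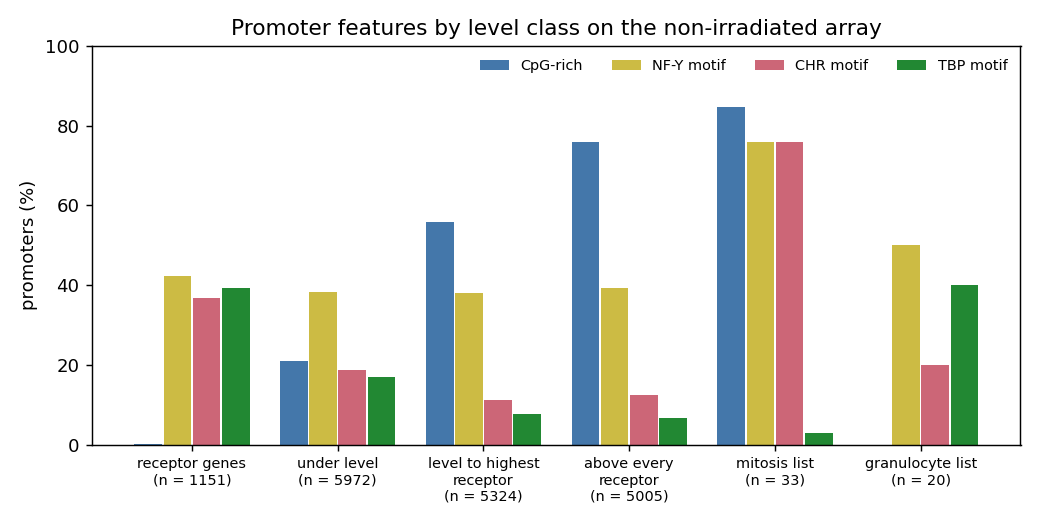
Percentage of RefSeq promoter windows (300 bases, GRCm38.p6) that were CpG-rich or held a match to the NF-Y motif (CCAAT), the CHR motif (TTTGAA) or the TATA motif bound by TBP (TATAAA). The sets are receptor genes at any level, other genes in classes by level on the non-irradiated array, and 2 gene lists, with n the number of windows. CpG-rich windows are 0.0869% of the receptor genes and go from 21.1% to 75.9% across the level classes of other genes. Among the sets drawn, the mitosis list has the highest share of NF-Y and of CHR matches, and the granulocyte list has no CpG-rich window.

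Monocyte and macrophage genes were mostly above the detection level, and their shares in the higher classes were near those of all named genes. Of 24, 23 lay above the detection level (95.8%, against 57.4% of all named genes). Above every receptor gene lay 6 (25%, against 26.8%), and 2 were in the brightest class (8.33%, against 10.0%), with a median of 6.00. The 2 were Ly6c2 (11.08), a surface protein of monocytes and their progenitors, and Hmox1 (8.87), the haem-degrading enzyme. Cd68 (8.29), a lysosomal glycoprotein, Ccr2 (8.17), the receptor by which monocytes leave the marrow, F13a1 (7.77) and Vcam1 (6.98) were the others above every receptor gene. The complement genes of tissue macrophages C1qb (6.67), C1qa (6.12) and C1qc (5.89) and the receptor gene Csf1r (6.36) read lower, and Adgre1, which encodes F4/80, read 4.17, at the detection level. Among 17 dendritic cell and MHC class II genes, 13 lay above the detection level and 4 in the brightest class, namely H2-DMa (10.21), Bst2 (9.22), H2-Ab1 (9.13) and Cd74 (8.68). All 4 have wider use in blood cells, and the defining genes of dendritic subsets read near or under the detection level: Clec9a at 4.23, Xcr1 at 4.20 and Siglech at 3.81.

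Basophil, mast cell and eosinophil products were bright in a few genes. Of 11 mast cell and basophil genes, 7 lay above the detection level (63.6%, against 57.4% of all named genes) and 3 in the brightest class. The 3 were the basophil protease genes Prss34 (9.25) and Mcpt8 (8.98) and the mast cell carboxypeptidase gene Cpa3, whose level lay between them. Hdc, the histamine-forming enzyme, read 8.01, and the chains of the IgE receptor Ms4a2 and Fcer1a read 5.95 and 5.62. The mature mast cell proteases Mcpt4 (3.47), Tpsab1 (3.80), Tpsb2 (3.89) and Cma1 (4.10) read under the detection level. Of 8 eosinophil genes, 5 lay above it (62.5%, against 57.4%). Prg2, the major basic protein, read 10.56, Epx, the eosinophil peroxidase, 6.14, and Il5ra 3.10.

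Red cell genes were nearly all above the detection level, with a share in the brightest class near that of all named genes. Of 23, 22 lay above the detection level and 9 above every receptor gene (39.1%, against 26.8% of all named genes). The brightest class held 3 (13%, against 10.0%), and the median was 5.93. Car2 (10.69) and Car1 (10.49), carbonic anhydrases, and Blvrb (8.94), biliverdin reductase B, made up the brightest class. Tfrc, the transferrin receptor of dividing cells and erythroblasts, read 8.13. The globin gene Hbb-bs read 5.58, the band 3 gene Slc4a1 5.43, the haem synthesis gene Alas2 4.20 and the membrane skeleton gene Epb42 3.23. Of the 17 erythroid genes with a promoter window, 8 (47.1%) held AGATAA, a sequence bound by GATA factors, against 9.79% of all windows. So did 44.4% of 9 mast cell and basophil windows and 35.3% of 17 megakaryocyte and platelet windows. The 1151 receptor gene windows, which were poor in GC, held it in 26.4% of cases.

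Megakaryocyte and platelet genes, several of which are known to be used by a platelet-biased share of LT-HSCs, lay above the detection level in 19 of 21 cases and in the brightest class in 4, with a median of 6.65. The 4 were Plek (9.88), the protein kinase C substrate of platelets, Pf4 (9.35), a platelet chemokine, Gp9 (8.99) of the von Willebrand factor receptor and Cd9 (8.99). Itga2b, which encodes CD41, read 8.05, Gp5 7.80, Selp 7.62 and Vwf 6.31. Ppbp (5.84) and Gp6 (4.17) were lower, and Tubb1 and Clec1b (both 3.25) read under the detection level.

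**Figure D4:**
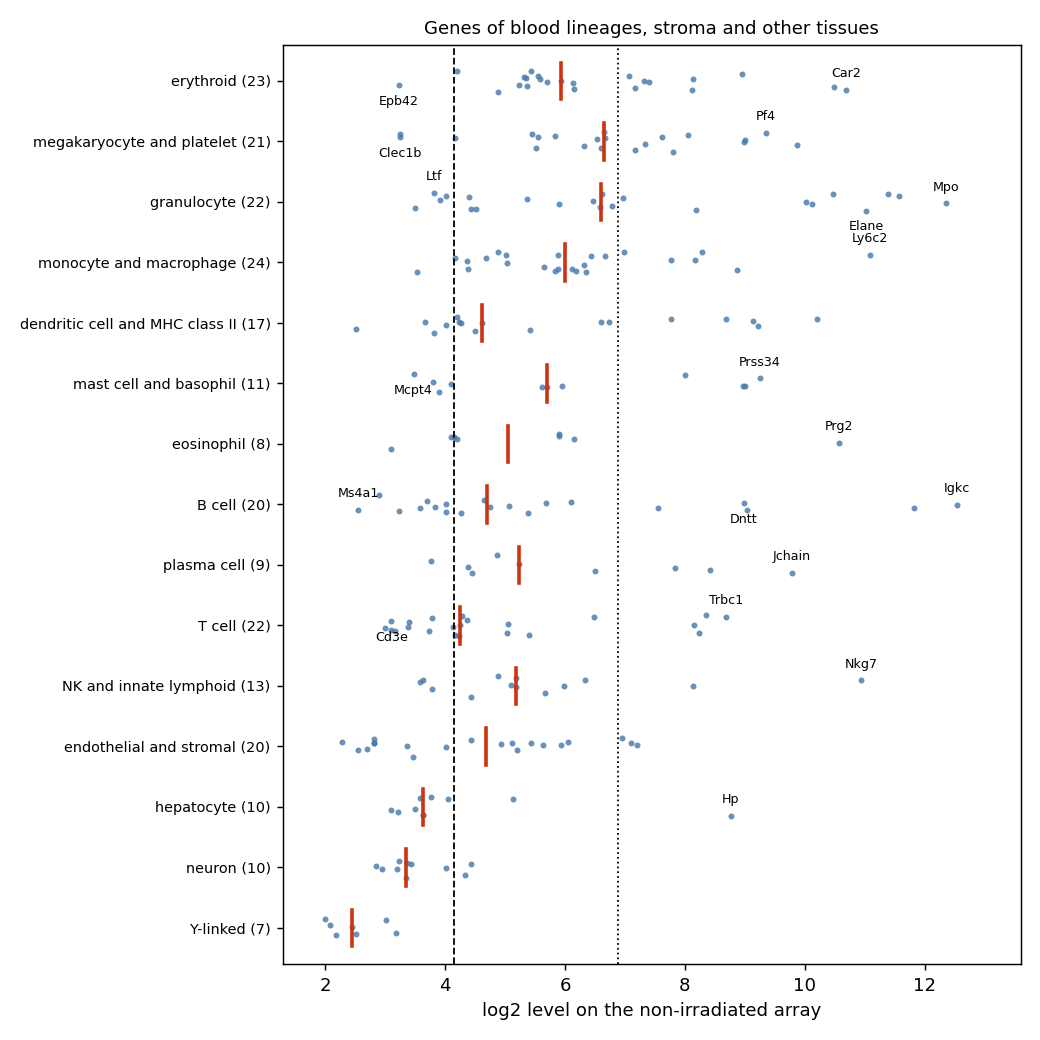
Log2 level of each measured member of 12 blood and stroma gene lists and 3 reference lists on the non-irradiated array (points; number of members in brackets), with list medians (red bars), the detection level of 4.15 (dashed) and the highest receptor gene at 6.89 (dotted). Bright points such as Mpo, Ly6c2, Prg2, Igkc and Nkg7 stand far right of their list medians, and the Y-linked genes all lie left of the dashed line.

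Lymphoid genes split by kind. Of 20 B cell genes, 12 lay above the detection level (60%, against 57.4% of all named genes) and 4 in the brightest class. The list median was 4.70, close to that of all named genes. The 4 were Igkc (12.55), Ighm (11.83), the antigen receptor chain Cd79b (9.04) and Dntt (8.99), the terminal transferase of early lymphoid cells. The pre-B receptor genes Vpreb2 (7.56) and Igll1 (6.10) lay above the detection level, while Rag1 (3.58), Cd22 (3.23) and Ms4a1 (2.55), the gene for CD20, did not. Of 9 plasma cell genes, 8 lay above it, with Jchain at 9.79, Xbp1 at 8.43, Mzb1 at 6.50 and Sdc1, which encodes CD138, at 4.87. Of 22 T cell genes, 13 lay above the detection level (59.1%, against 57.4% of all named genes). Above every receptor gene lay 4, and 1 was in the brightest class. The list median was 4.24. The 4 were the receptor beta constant genes Trbc1 (8.68) and Trbc2 (8.23), the adaptor gene Lat (8.35) and Thy1 (8.15), while all 3 measured CD3 chains, Cd3d (3.73), Cd3e (3.10) and Cd3g (2.99), and Trac (3.79) read under the detection level. Of 13 NK cell genes, 10 lay above it, led by Nkg7 (10.94), a cytotoxic granule protein, and Ccl5 (8.14), while Ncr1 read 4.43 and Eomes 3.58.

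Segments of antibody genes gave higher readings than segments of T cell receptor genes. Of 185 antibody variable segments, 117 (63.2%) lay above the detection level and 56 (30.3%) above every receptor gene. These shares were near the 57.4% and 26.8% of all named genes. Of 77 T cell receptor variable segments, 21 (27.3%) and 1 (1.3%) did, below those shares. Ighv11-2 (12.17) and Igkv15-103 (12.11) were the highest variable segments, and the joining segments Ighj1 (12.61) and Igkj1 (12.47) were in the brightest class too. Among heavy chain constant genes, Ighm (11.83) and Igha (11.31) were followed by Ighg2c (8.84), Ighg1 (7.51) and Ighg2b (6.78), while Ighg3 (3.53) and Ighe (3.04) read under the detection level. The segments named here other than Igkc and Ighm were chosen after their values were seen. Variable segments resemble one another closely and germline transcripts can be read without a rearranged gene, and neither was tested. Genes of the early lymphoid-primed state lay above the detection level in 10 of 13 cases with a median of 7.35, a list that shares Cd34, Cd48 and Flt3 with the gated-low list, and it included Ltb (8.25), Il12a (7.95) and Satb1 (7.32).

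Endothelial and stromal genes, which mark the cells of the niche, gave 11 of 20 above the detection level (55%, against 57.4% of all named genes), 3 above every receptor gene and none in the brightest class. The 3 were Emcn (7.21), the endothelial mucin also known from stem cells, Pdgfrb (7.10) and Sparc (6.96). Cxcl12 read 5.93, and the collagen gene Col1a1 (4.01), Kitl (2.81) and Lepr (2.70) read under the detection level.

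Cell cycle genes read high throughout. All 39 mitosis genes lay above the detection level, 37 above every receptor gene and 15 in the brightest class, with a median of 8.21. The highest were Ube2c (10.84), the ubiquitin-conjugating enzyme of the anaphase-promoting complex, the cyclin genes Ccnb2 (9.97) and Ccna2 (9.88), the mitotic kinase gene Cdk1 (9.82), Top2a (9.81), a topoisomerase, Mad2l1 (9.67) of the spindle checkpoint, Aurkb (9.33) and the centromeric histone gene Cenpa (9.32). The lowest, Spag5 (6.68) and Melk (6.69), still lay far above the detection level. The proliferation marker Mki67, named after its value was seen, read 9.18.

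Promoters of Ccnb2 and Cdk1 are printed, with the same source, window and capitals as above, because both motifs counted over the list below occur in them.
Ccnb2, chr9:70421505-70421804, minus strand: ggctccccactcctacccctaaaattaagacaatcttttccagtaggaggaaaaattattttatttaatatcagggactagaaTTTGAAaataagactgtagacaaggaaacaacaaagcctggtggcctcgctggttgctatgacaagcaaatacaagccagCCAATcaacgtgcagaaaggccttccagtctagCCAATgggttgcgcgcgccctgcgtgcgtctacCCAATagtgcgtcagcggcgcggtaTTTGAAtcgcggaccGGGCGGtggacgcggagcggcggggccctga
Cdk1, chr10:69352863-69353162, minus strand: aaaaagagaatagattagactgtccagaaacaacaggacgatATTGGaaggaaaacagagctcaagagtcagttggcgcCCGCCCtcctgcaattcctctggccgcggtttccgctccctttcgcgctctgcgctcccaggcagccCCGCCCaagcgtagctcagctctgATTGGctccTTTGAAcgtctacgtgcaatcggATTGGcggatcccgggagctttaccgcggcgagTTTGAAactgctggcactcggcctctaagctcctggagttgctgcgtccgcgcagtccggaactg
Both windows held 3 CCAAT and 2 TTTGAA matches, and no match overlapped one of another motif. Pairs of CCAAT boxes and CHR elements are known to confine transcription to G2 and mitosis. Of the 33 mitosis genes with a window, 25 (75.8%) held CCAAT, against 38.8% of all windows, and 25 (75.8%) held TTTGAA, against 15.8%. For DNA replication genes, 19 of 30 windows (63.3%) held CCAAT and 4 TTTGAA. A high CCAAT share was not particular to mitosis genes. It was 85.7% of 14 MHC class I presentation windows and 80% of 15 cholesterol and fatty acid synthesis windows. A match is a description of these letters and does not show that a factor is bound.

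All 36 DNA replication genes lay above the detection level as well, 34 above every receptor gene and 17 in the brightest class, with a median of 8.47. Pcna (11.87) was the highest, followed by Mcm6 (10.13) of the replicative helicase, the nucleotide enzymes Dut (9.80) and Rrm1 (9.79), Uhrf1 (9.56), Mcm3 (9.45), Mcm4 (9.44) and the ligase gene Lig1 (9.43). Orc1 (6.10), of the origin recognition complex, was the lowest and Fen1 (6.83) the next. Genes of the G1 decision, 22 of 22 above the detection level with a median of 7.91, included Cdk4 (10.74), Cdk6 (10.25), which licenses exit from quiescence, and Ccnd2 (9.41). Ccnd3 (8.41), Ccnd1 (7.50) and the retinoblastoma gene Rb1 (8.02) lay above every receptor gene.

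Genes that hold cells at rest were present beside them. All 7 CDK inhibitors lay above the detection level and 4 above every receptor gene, namely Cdkn1a (9.34), which encodes p21, Cdkn1b (8.51), for p27, Cdkn2d (7.84) and Cdkn2c (6.95). The p57 gene Cdkn1c, tied to stem cell quiescence, read 5.33 and Cdkn2b 4.94, whereas Cdkn2a (4.17), which encodes p16 and p19 and is silent in young stem cells, sat at the detection level of 4.15. All 20 quiescence regulators lay above the detection level and 8 were in the brightest class, with a median of 8.16. These included Egr1 (10.64), Txnip (10.50), Nr4a1 (10.03), Btg2 (9.95), Junb (9.15) and Pml (8.59), while Foxo3, the forkhead factor that preserves stem cells, read 7.07. Several members of that list are also immediate early genes, which cells switch on within minutes of a stimulus.

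Immediate early genes, 28 of 29 above the detection level and 18 in the brightest class, had a median of 8.88. Zfp36 (12.41), Jun (11.16), Dusp1 (11.05), a phosphatase of MAP kinases, Fos (10.77), Myc (10.64), Egr1 (10.64), Ier2 (10.36) and Zfp36l1 (10.06) led, and Nr4a3 (3.81) was the 1 member under the detection level. Of 27 heat shock and chaperone genes, 26 lay above the detection level. The constitutive chaperone genes Hspa8 (11.42), Cct5 (11.21), Hspd1 (11.20) and Hspa5 (10.93) were among the highest, the stress-induced genes Hspb1 and Hspa1a read 4.94 and 5.39, and Hspa1b (3.44) read under the detection level.

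**Figure D5:**
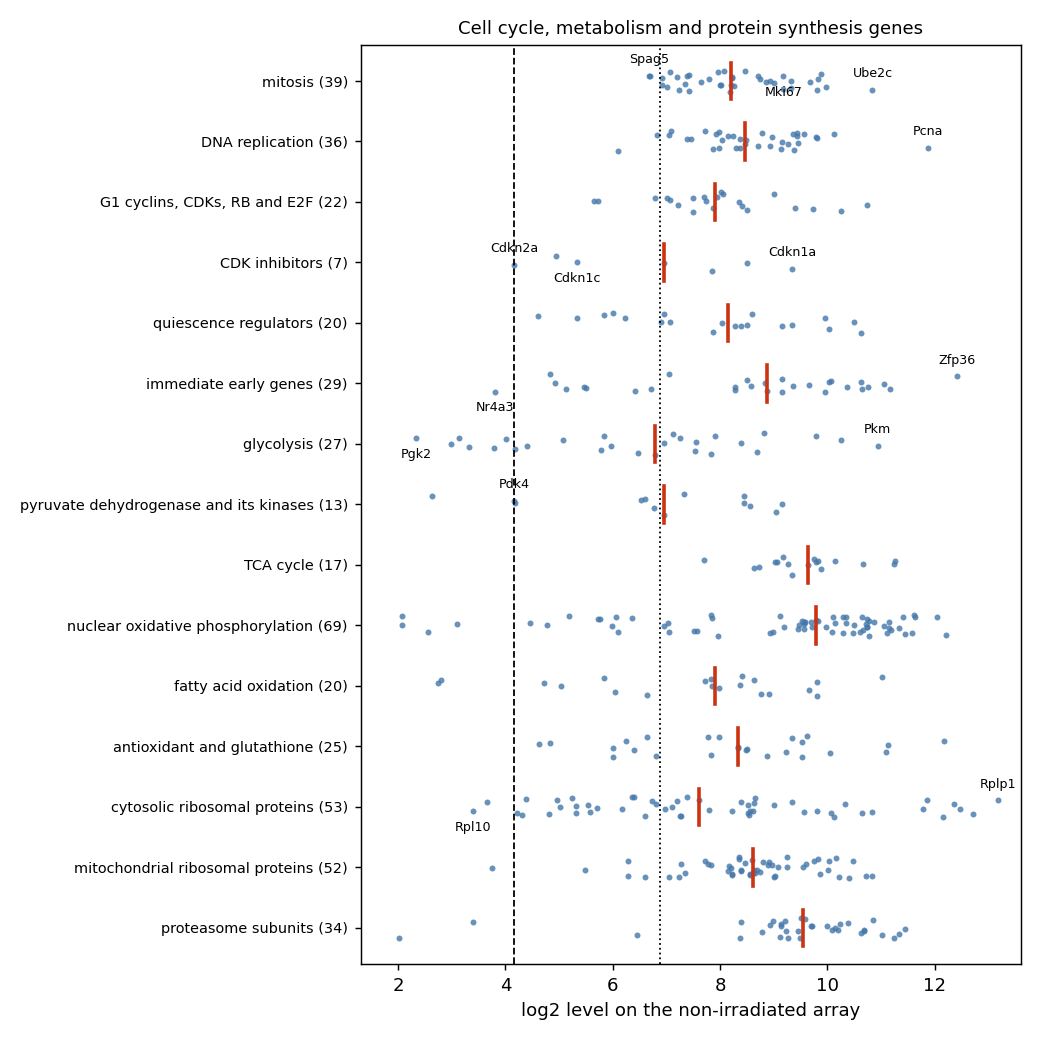
Log2 level of each measured member of 15 lists of cell cycle, metabolism and protein synthesis genes on the non-irradiated array (points; number of members in brackets), with list medians (red bars), the detection level of 4.15 (dashed) and the highest receptor gene at 6.89 (dotted). Mitosis, replication and TCA cycle genes lie in compact groups right of the dashed line, whereas glycolysis genes and cytosolic ribosomal protein genes spread over most of the scale.

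Central metabolism showed its highest list medians in mitochondrial pathways. All 17 TCA cycle genes lay above every receptor gene and 16 were in the brightest class, with a median of 9.64. Mdh2 (11.26), malate dehydrogenase, and Idh3g (11.23), a subunit of isocitrate dehydrogenase, were the highest, and Idh3a (7.70), another subunit, the only one outside that class. Of 69 nuclear genes of oxidative phosphorylation, 65 lay above the detection level and 48 in the brightest class, with a median of 9.78. The highest after Cox6a1 and Atp5e included Ndufs6 (11.63), Cox4i1 (11.62), Ndufa12 (11.58), Atp5a1 (11.45), Atp5b (11.42) and Uqcrh (11.33), which belong to complexes I, III, IV and V. Atp5k (12.00), also of ATP synthase, read between Atp5e and Ndufs6. The 4 under the detection level were the isoforms of muscle or testis Cox8b (3.10), Cox8c (2.55), Cox7b2 (2.07) and Cyct (2.06). Mitochondrially encoded genes have no singly named probe set and were not analysed here.

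Glycolysis was mixed. Of 27 genes, 21 lay above the detection level, 13 above every receptor gene and 5 in the brightest class, with a median of 6.80. The 5 were Pkm (10.94), pyruvate kinase, Ldha (10.26) and Ldhb (8.68), lactate dehydrogenase chains, Tpi1 (9.79) and Slc2a1 (8.82), the glucose transporter GLUT1. Hk1 (8.39), Pfkl (7.84) and Pgk1 (7.54) followed. Isoforms of sperm, neurons and liver, Pgk2 (2.34), Ldhc (2.98), Eno2 (3.13) and Slc2a2 (3.31), read under the detection level, as did the widely used genes Aldoa (3.79) and Pgam1 (4.01). Of 13 genes of the pyruvate dehydrogenase step, which admits pyruvate to the TCA cycle, 12 lay above the detection level. The kinases that close it, known as guards of stem cell glycolysis, read 8.56 for Pdk3, 8.46 for Pdk1, 6.95 for Pdk2 and 4.16 for Pdk4, the last at the detection level.

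Hypoxia response genes lay above the detection level in 16 of 17 cases, with a median of 7.46. Hif1a, the oxygen-regulated factor, read 7.58, Cited2 (10.04), its negative regulator required in stem cells, was the highest, and Epas1 (4.84) and Adm (3.58) were the lowest. Of 20 fatty acid oxidation genes, 18 lay above the detection level, led by the electron transfer chains Etfb (11.01) and Etfa (9.80), while Ppara (2.75) and Ppargc1a (2.81) read under it. All 20 cholesterol and fatty acid synthesis genes lay above it, with Srebf2 (9.45) and Scd2 (9.39) the highest. All 25 antioxidant genes did too, 12 of them in the brightest class, among them Gpx1 (12.18), Sod1 (11.12) and Gstp1 (11.09). All 13 genes of serine, folate and glutamine use and all 19 nutrient sensing genes lay above the detection level, with Glul (10.76), glutamine synthetase, Stk11 (8.21), which encodes LKB1, and Mtor (7.43) among them. In the pentose phosphate pathway, Tkt (10.90), Pgls (10.45), Pgd (9.20) and Taldo1 (8.88) were in the brightest class, and the 3 of 9 genes under the detection level were Tktl1 (2.96), G6pd2 (2.95) and Tktl2 (2.17). All 26 autophagy and lysosome genes lay above it, from Tfeb (4.46) to Gabarap (10.82).

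Protein synthesis genes gave uneven readings within a machine whose parts are made in equal numbers. Of 53 cytosolic ribosomal protein genes, 51 lay above the detection level, 33 above every receptor gene and 23 in the brightest class, with a median of 7.61 and a range from 3.39 for Rpl10 to 13.17 for Rplp1. Readings of single probe sets thus differed by that much among the parts of 1 particle. Of 52 mitochondrial ribosomal protein genes, 51 lay above the detection level and 30 in the brightest class, with a median of 8.62. All 29 ribosome biogenesis genes lay above every receptor gene, led by Ncl (11.33), nucleolin, and Nop56 (10.26), and all 19 aminoacyl-tRNA synthetase genes lay above the detection level. Proteasome subunits had 29 of 34 in the brightest class, a median of 9.54 and, at the top, the immunoproteasome gene Psmb9 (11.45), Psma7 (11.34) and Psmb4 (11.25).

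Genes of DNA damage and survival were read in unirradiated mice. Of 21 p53 pathway genes, 17 lay above the detection level and 7 above every receptor gene, with a median of 5.60. Btg2 (9.95), Cdkn1a (9.34) and Ccng1 (8.96), all known p53 targets, were in the brightest class, Mdm2 read 7.64, the death genes Pmaip1 and Bbc3 read 5.57 and 4.93, and Fas (3.41) and Eda2r (3.36) read under the detection level. All 23 homologous recombination and Fanconi genes and all 18 end joining and damage signalling genes lay above it, with medians of 6.74 and 7.05. H2ax (11.65), the histone that marks breaks, and Parp1 (9.35) were the highest of the latter, Atm read 6.98 and the ligase gene Lig4 4.78. Among 16 BCL2 family genes, 15 lay above it, with Bak1 (10.47), a pore-forming killer, and the survival genes Mcl1 (9.16) and Bcl2 (9.13) in the brightest class. All 11 telomere genes did, with the telomerase RNA Terc at 9.60 and the telomerase protein gene Tert at 4.46.

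Interferon and antigen presentation genes diverged within their lists. All 17 MHC class I presentation genes lay above the detection level and 9 in the brightest class, with a median of 8.86. Of 31 interferon-stimulated genes, 28 lay above it, 13 above every receptor gene and 5 in the brightest class, with a median of 6.53. The 5 were Ly6e (12.16), Ifitm3 (11.19), Ifitm2 (10.50), Bst2 (9.22) and Irf2 (8.52), membrane restriction factors and a repressor of interferon genes. The strongly inducible genes Mx1 (3.15) and Mx2 (3.73), together with Gbp4 (3.57), read under the detection level, and Isg15 read 5.21.

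Noncoding genes differed by kind. Of 18186 protein-coding genes other than receptors, 66.4% lay above the detection level, against 28.3% of 2051 long noncoding, 22.5% of 529 miRNA and 75.5% of 106 small nucleolar RNA genes. Of the smaller kinds, 7 of 8 guide RNA genes and 5 of 6 small nuclear RNA genes lay above it, and 1 of 7 antisense RNA genes did. In the fixed list of 19 long noncoding and other RNA genes, 12 were in the brightest class, among them the small nucleolar RNA hosts Snhg8 (11.62), Snhg6 (11.22) and Snhg1 (11.07), Rmrp (10.84) of RNase MRP and the nuclear RNA Malat1 (10.04). By chromosome, the share of protein-coding genes other than receptors above the detection level was 67.1% on the autosomes together, 50.5% of 749 on the X and 0 of 10 on the Y.

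Of 24 miRNA genes chosen for known roles in blood or other tissues, 4 lay above the detection level, namely Mir99b (6.57), Mir17 (6.51), Mir375 (5.13) and Mir155 (4.65). These probe sets read the hairpin or its precursor, so mature miRNA was not measured. The mature RefSeq sequences of a cluster on chromosome 17 and of its relatives are printed because 1 hairpin of the cluster read above the detection level and its neighbours did not. Those of miR-17-5p and miR-126a-3p, which lie elsewhere and have other seeds, are printed beside them. Capitals mark the seed, bases 2 to 8, and coordinates are on GRCm38.p6.
miR-99b-5p, chr17:17830194-17830215, plus strand: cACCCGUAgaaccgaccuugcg
miR-99a-5p, chr16:77598940-77598961, plus strand: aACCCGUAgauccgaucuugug
let-7e-5p, chr17:17830366-17830387, plus strand: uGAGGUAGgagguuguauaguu
miR-125a-5p, chr17:17830817-17830840, plus strand: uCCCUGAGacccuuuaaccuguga
miR-125b-5p: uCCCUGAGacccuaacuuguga
miR-17-5p, chr14:115043684-115043706, plus strand: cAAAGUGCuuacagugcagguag
miR-126a-3p, chr2:26591402-26591423, plus strand: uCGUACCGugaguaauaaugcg
In the cluster, Mir99b read 6.57 while Mirlet7e (3.01) and Mir125a (2.44) read under the detection level. The miRNAs miR-99b and miR-99a share the seed ACCCGUA, and miR-125a and miR-125b share CCCUGAG. The second members of those pairs read under the detection level too, at 2.81 for Mir99a, 2.15 for Mir125b-1 and 2.07 for Mir125b-2. The same held for Mir126a (2.45), whose mature product is known to keep stem cells quiescent.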

How the data were processed

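The non-irradiated array is an Affymetrix whole-transcript array, with biotin-labelled target made from total RNA extracted with an RNeasy plus micro kit, per the labels' protocols. The deposited values are log2 levels per probe set, a scale read from their range. The submitters' processing notes name Partek without a version. No source used here states how background was corrected, how probes were summarised or how arrays were normalised, and no value was rescaled. Genes were named from the platform annotation where it gives 1 symbol (23185 of 25206 probe sets; 2021 have none used here).

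Levels were counted with Python 3.11.15, numpy 2.4.6 and pandas 2.3.3 against the 95th percentile and the maximum of 1348 receptor genes and the 90th percentile of all named genes, after the counting was tested on simulated data. The members and 73 gene lists (1579 symbols, 1384 with a named probe set) were chosen with earlier results of these data known. Genes named are the 30 highest after gene models, pseudogenes, segments and small RNAs were set aside (which hold the 10 highest without ribosomal proteins), any member of lists of up to 30 genes, the 8 highest and 6 lowest of longer lists, members nearest the detection level, and markers set for the label check. Promoters and miRNAs were matched by symbol to RefSeq, GRCm38.p6. Alternatives were other percentiles, other background genes, an offset of 1 log2 unit, other probe set selections, and means in place of medians. Precision is limited by there being 1 array.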

Additional observations from a re-analysis of the deposited data

Results flagged for a closer look

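Probe sets without a single gene symbol take no part in the report. Of these 2021, 1109 lay above the detection level (54.9%, against 57.4% of named genes) and 534 above every receptor gene (26.4%, against 26.8%). They were singled out because signal above background appears in data that no comparison used. Their median was 4.46 and the highest read 12.79. What they read was not tested, and they stay unnamed here.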

How the results depend on the processing

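The detection level was 4.15 as reported, 3.70 at the 90th and 5.33 at the 99th percentile of the receptor genes, 4.15 with olfactory and 4.17 with vomeronasal receptors only, and 5.95 with genes of other tissues as background. With the last, 8636 named genes lay above it in place of 13313, and 22 of 66 lists changed by over 1.5 times: stem cell identity (24 members), lineage-restricted transcription factors (7), CDK inhibitors (4), erythroid (11), monocyte and macrophage (12), dendritic cell (7), B cell (6), T cell (5), endothelial and stromal (4), TGF-beta, BMP, Notch and Wnt receptors (12), p53 pathway (9), BCL2 family (7), NK (4), plasma cell (4), imprinted (3), retinoid (3), eosinophil (2), miRNA (2), Hox A (2) and Hox B, C and D (0 each). At the 99th percentile 19 of 72 lists changed by that much: TGF-beta, BMP, Notch and Wnt receptors (15), lineage-restricted transcription factors (9), BCL2 family (9), dendritic cell (8), endothelial and stromal (7), T cell (6), imprinted (6), NK (5), plasma cell (4), Hox A (3), miRNA (2), Hox B, C and D (0 each) and 5 lists of other tissues. At 1 log2 unit above the detection level 12 of 72 did: dendritic cell (8), imprinted (7), T cell (6), plasma cell (5), miRNA (2), Hox B, C and D (0 each) and 4 lists of other tissues. With olfactory receptors none of 72 did. Fewer genes pass a higher level by construction. A mean in place of the median moved 9 of 72 list values by over 0.77, the spread of the receptor genes: oxidative phosphorylation (from 9.78 downwards), translation factors to 8.47, chaperones to 8.33, long noncoding RNA to 8.01, pentose phosphate to 6.95, plasma cell to 6.14, dendritic cell to 5.86, B cell to 5.68 and retinoid to 4.84. The median over members above the detection level alone moved by that much in 20 of 71 lists. No paired analysis was possible because each group is 1 array.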

Other observations

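Members of the lists closest to the detection level of 4.15 have no settled side. Just above it read Ptcra (4.16), the pre-T cell receptor chain, Pdk4 (4.16), Cdkn2a (4.17), Gp6 (4.17), Adgre1 (4.17) and the glucose transporter gene Slc2a4 (4.19). Just under it read the eosinophil ribonuclease gene Ear6 (4.14), the lymphoid factor gene Spib (4.13), the T cell kinase gene Zap70 (4.13) and Dnmt3l (4.12), a cofactor of germline DNA methylation.

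The highest miRNA genes of the whole array, named after their values were seen, were Mir449b (11.30), Mir692-1 (10.33) and Mir3064 (9.94), none of which was in the list of known miRNAs. Small nucleolar RNA genes were led by Snord13 (11.35) and Snord104 (11.25), also named after their values were seen. Of the 100 highest named genes, 76 were protein-coding, 9 were antibody segments or constant regions and 8 were pseudogenes, and 6 carried the symbol of a gene model.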
